A study of Mus musculus with 13 samples.

Results

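The genes described here encode the proteins of the cytosolic ribosome. They were chosen by symbol alone, as every row whose gene symbol begins with Rpl or Rps and a digit, with Rpsa, Rplp0, Rplp1 and Rplp2 added, and with the S6 kinases and the rows named as pseudogenes left out. This gave 89 of 24532 genes, all of them placed in the mouse genome on 19 chromosomes. Of the 89, 77 encode constituents of the ribosome itself (31 of the small subunit and 46 of the large subunit) and are called core members below. Another 11 are paralogs or retrogenes of a core member (Rpl22l1, Rps27l, Rpl39l, Rpl36al, Rpl7l1, Rpl3l, Rpl10l, Rps4l, Rpl32l, Rpl37rt and Rps27rt). The last, Rps19bp1, encodes a protein that binds Rps19 and is no constituent of the ribosome.

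RNA of sorted cells from bone marrow (BM) cultures of C57BL/6 mice aged 8 to 14 weeks was sequenced in 13 libraries of 7 subsets. In FL-BM culture, BM cells grow with FLT3L, the growth factor of conventional dendritic cells (cDCs). From it came mature FL-cDC2s (CD83+ CD115- CX3CR1-, 2 libraries), immature FL-cDC2s (CD83- CD115- CX3CR1-, 2 libraries) and non-DCs (CD83- CD115+ CX3CR1+ cells of the cDC2 gate, 2 libraries), and also mature FL-cDC1s (CD83+, 1 library) and immature FL-cDC1s (CD83-, 2 libraries). In GM-BM culture the same tissue grows with GM-CSF, and it gave GM-DCs (CD11b int MHCII hi, 2 libraries) and GM-Macs, the macrophage-like cells of that culture (CD11b hi MHCII int, 2 libraries). RNA was extracted 2 times per subset, and the sources used here do not say whether from separate cultures, so that every p-value here reflects how far these libraries spread, which may be technical. Mature FL-cDC1s were too few for a second library, and this subset has no replicate spread of its own.

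A ribosome is made of a small subunit that reads the mRNA and a large subunit that joins amino acids, and each subunit holds many different proteins, nearly all of them in a single copy. Transcripts of these proteins are among the most abundant of a cell and are usually made in step with each other. Most carry a 5′ terminal oligopyrimidine (TOP) tract, a C followed by a run of C and T at the very start of the mRNA, through which mTORC1 and LARP1 control their translation and stability. MYC and its antagonists of the MXD family set the transcription of many genes for ribosomal proteins and for ribosome assembly. Dendritic cells slow their growth and change how they use their translation machinery as they mature.

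The TOP tract is the sequence by which these genes are known as a family, and 8 members on which the results below turn are shown at their transcription start. Each line holds 30 bases, 15 before the annotated start and 15 from it on, 5′ to 3′ on the strand of the gene, with a tract of C and at least 5 further C or T in capitals. The sequences and positions are those of RefSeq GRCm38.p6. The windows lie at chr9:66946071-66946100 (Rps27l, plus strand, 1 of its 2 annotated starts), chr2:32961697-32961726 (Rpl12, plus), chr11:114668565-114668594 (Rpl38, plus), chr7:141447636-141447665 (Rplp2, plus), chr10:23787195-23787224 (Rps12, minus), chrX:37085208-37085237 (Rpl39, minus), chr9:120127751-120127780 (Rpsa, plus) and chr17:46782642-46782671 (Rpl7l1, minus).
Rps27l: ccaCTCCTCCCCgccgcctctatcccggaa
Rpl12: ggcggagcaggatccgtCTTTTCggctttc
Rpl38: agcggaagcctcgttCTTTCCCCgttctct
Rplp2: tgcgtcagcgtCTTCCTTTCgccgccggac
Rps12: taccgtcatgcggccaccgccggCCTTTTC
Rpl39: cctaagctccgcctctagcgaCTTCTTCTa
Rpsa: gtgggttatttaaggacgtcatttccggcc
Rpl7l1: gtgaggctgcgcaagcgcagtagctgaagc
Rpl38 has its tract begin on the first transcribed base, while Rps27l, Rpl12, Rplp2, Rps12 and Rpl39 have it elsewhere in the window, and Rpsa and Rpl7l1 have none in this window. Of the 89 members, 68 had a start in the table used, and 38 of them (55.9%) held such a tract within the 30 bases, against 6883 of 27025 genes (25.5%). The letters CCGGAAG, a motif of ETS transcription factors searched on both strands of the 300 bases around the start, were in 26 of 68 members (38.2%) and in 9.93% of genes. A match is a string of letters, not a measured site.

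The libraries held 46042095 to 71330242 reads, so a level in 1 library rests on ample counts for nearly every member. Markers of mature DCs were high in the subsets named mature and in GM-DCs, and those of macrophages in GM-Macs and non-DCs. Those of cDC2s and cDC1s followed the labels only in part. The lists include Cd83 and Csf1r, the gene of CD115. Cells of FL-BM culture were sorted on these proteins, so for these genes the sort itself favours a match. The summed level of 6 mature DC markers (such as Ccr7 and Fscn1) was 15738 to 19178 FPKM (reads scaled to transcript length and library total) in mature FL-cDC2s, 14230 in the mature FL-cDC1 library and 10725 to 11825 in GM-DCs, against 153 to 743 in the other subsets. The sum of 8 macrophage markers was 50571 to 55659 in non-DCs and 50933 to 85972 in GM-Macs, against 97.2 to 4505 elsewhere. The 4 cDC2 markers summed to 40.2 to 60.9 FPKM in mature FL-cDC2s, against 525 to 535 in immature FL-cDC2s. Their sum was 741 to 804 in non-DCs and, on both sides of immature FL-cDC2s, 425 to 847 in GM-Macs. The markers did not move together. In non-DCs Sirpa had 603 and 643 FPKM, against 219 and 204 in immature FL-cDC2s, and Itgam 125 and 151, against 121 and 115. Cd209a (2.25 and 1.19, against 146 and 162) and Clec10a (11.4 and 9.03, against 49.4 and 44.2) were lower in non-DCs. The 4 cDC1 markers summed to 874 FPKM in the mature FL-cDC1 library, against 1317 to 1745 in immature FL-cDC1s. They summed to 801 to 974 in GM-DCs and 472 to 538 in mature FL-cDC2s. Most of this was Irf8, at 919 and 766 FPKM in GM-DCs and 412 and 450 in mature FL-cDC2s. Batf3 had 34.8 to 88.1 FPKM in these subsets, against 49.7 and 97.1 in immature FL-cDC1s. Xcr1 and Clec9a had only 0.0187 to 0.245 FPKM there, against 14.2 to 112 in immature FL-cDC1s. Erythroid markers, whose cells carry many ribosomal transcripts, summed to at most 0.633 FPKM in any library. The 7 proliferation markers summed to 1415 to 1525 FPKM in immature FL-cDC2s and 748 to 1065 in immature FL-cDC1s, and to at most 269 in the other subsets.

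Ribosomal protein transcripts took their largest share of the transcriptome in GM-DCs and immature FL-cDC1s and their smallest in non-DCs. The 89 genes made up 0.489% and 0.334% of the summed FPKM of the non-DC libraries. They made up 1.03% and 1.42% in mature FL-cDC2s, 2.61% and 1.32% in immature FL-cDC2s, 2.46% in the mature FL-cDC1 library, and 1.603% and 1.579% in GM-Macs. The highest shares were 2.03% and 3.60% in immature FL-cDC1s and 3.43% and 2.69% in GM-DCs. Ordered by mean share, non-DCs lay below mature FL-cDC2s and these below GM-Macs without overlap of libraries, while the shares of each further neighbour in the order overlapped. Between the extremes, the mean share was 3.06% in GM-DCs and 0.412% in non-DCs, a 7.43-fold difference. By library, the median member stood at 221 FPKM in immature FL-cDC1 replicate 2, against 9.96 FPKM in non-DC replicate 2. In bulk samples, fewer cells with many such transcripts and fewer transcripts per cell cannot be told apart. With 2 libraries against 2, an exact permutation test of a single value cannot give a p below 0.33, so the shares carry no test.

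**Figure D1:**
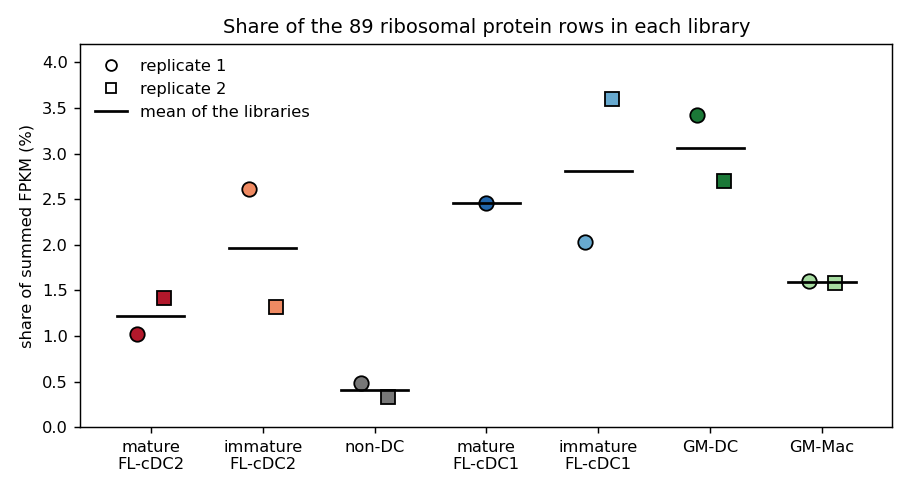
Share of the summed FPKM of each library, in percent, taken by the 89 ribosomal protein genes, with circles for replicate 1, squares for replicate 2 and a line for the mean of the libraries of a subset. Both non-DC libraries, at 0.489% and 0.334%, lie below all 11 others, and the 2 libraries of immature FL-cDC2s (2.61% and 1.32%) and of immature FL-cDC1s (2.03% and 3.60%) lie far apart.

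The lowest place was shared by nearly all members, while the highest was split mostly between immature FL-cDC1s and GM-DCs. The same counts over all genes are not given here. By mean FPKM, 60 of the 89 were highest in immature FL-cDC1s and 24 in GM-DCs, and 82 were lowest in non-DCs. Over the 13 libraries, the log2 level of a core member correlated with the median of the family at a median r of 0.98, and r was over 0.9 for 72 of 77. These correlations describe libraries that also share depth and preparation, and carry no test. The balance of the subunits moved little: the small subunit took 36.3% to 43.6% of the summed FPKM of the core, lowest in non-DC replicate 2 and highest in GM-DC replicate 1.

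The most abundant members on the FPKM scale, averaged over subsets, were Rpl13 at 561, Rplp0 at 445, Rps9 at 334, Rpl4 at 333 and Rpl3 at 317 FPKM. Rplp0 forms the base of the P stalk, the arm of the large subunit that recruits elongation factors. It had 206 and 387 FPKM in mature FL-cDC2s, 614 and 356 in immature FL-cDC2s, against 149 and 104 in non-DCs. It had 569 FPKM in the mature FL-cDC1 library, 492 and 941 in immature FL-cDC1s, 592 and 541 in GM-DCs and 363 and 340 in GM-Macs. The non-DC libraries were the 2 lowest, and those of mature and immature FL-cDC2s overlapped. Rplp1 and Rplp2, the acidic proteins that Rplp0 carries, had the same extremes, with means of 15.2 and 14.8 FPKM in non-DCs and 173 and 175 FPKM in immature FL-cDC1s. At the other end stood genes known for single tissues. Rpl10l, which replaces Rpl10 in the testis, had 0 reads in all 13 libraries, which allows at most 3 reads per library. Rpl39l, a testis paralog, had at most 25 reads in a library, Rpl32l at most 15 and Rpl3l, the form of Rpl3 in heart and skeletal muscle, at most 68, in GM-DC replicate 1. Rpl37rt, a retrogene of Rpl37, averaged 1.80 FPKM.

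Replicates of a subset differed in the whole family at once. In immature FL-cDC1s all 76 core members compared were higher in replicate 2, with a median log2 difference (replicate 1 over replicate 2) of -1.29. In mature FL-cDC2s all 77 were higher in replicate 2 (median -0.57), and in GM-Macs 69 of 76 (median -0.32). Replicate 1 was higher in 75 of 76 core members for immature FL-cDC2s (median 1.17), in 73 of 73 for non-DCs (0.76) and in 72 of 76 for GM-DCs (0.41). Ribosomal protein transcripts are short, with a median implied length of 736 bases for the core against 2871 bases for 8909 genes that had at least 50 reads in every library. Other genes of under 500 bases were shifted the same way in every subset, with median log2 differences of -0.37 in mature FL-cDC2s, 0.77 in immature FL-cDC2s, 0.72 in non-DCs, -1.41 in immature FL-cDC1s, 0.29 in GM-DCs and -1.39 in GM-Macs. Other genes of 500 to 1000 bases, the bin with the median length of the core, had -0.49, 0.49, 0.50, -0.99, 0.12 and -0.83 in the same order. Each comparison below is therefore given beside the change of other short genes and with a fit that takes out a trend with transcript length. The part of length in the differences between replicates was not tested.

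**Figure D2:**
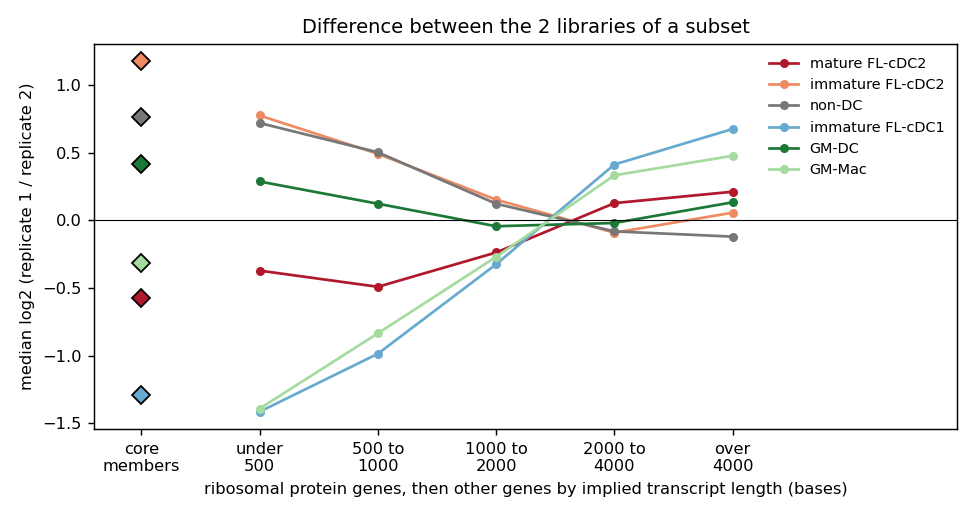
Median log2 ratio of replicate 1 to replicate 2 within a subset (vertical axis), for the core ribosomal protein genes (diamonds, left) and for other genes in 5 bins of implied transcript length in bases (circles joined by lines). The diamonds, from 1.17 in immature FL-cDC2s to -1.29 in immature FL-cDC1s, lie on the same side of 0 as the bin of genes under 500 bases in each of the 6 subsets.

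The first comparison asked how the non-DCs of the cDC2 gate differ from the immature FL-cDC2s sorted beside them. Immature FL-cDC2s had the higher level of nearly the whole family. Of 85 members tested, 71 were higher in immature FL-cDC2s and 0 were lower, at a Benjamini-Hochberg adjusted p under 0.05 over all genes tested in edgeR's quasi-likelihood fit. Of all 13242 genes tested, 47.6% passed, 23.6% higher and 24% lower. The other 4 members, Rpl10l, Rpl39l, Rpl3l and Rpl32l, had too few reads for the test. The median log2 fold change was 1.87 for the members, against 0.01 for all genes and 0.50 for 509 other genes of at most 1000 bases with at least 10 FPKM in the higher subset, of which 26.3% were higher. In FPKM, every immature FL-cDC2 library lay above every non-DC library for 83 of the 85, against 59.3% of all genes. The core of the small subunit (29 of 31 higher, median 1.97) and of the large subunit (40 of 46 higher, median 1.86) gave like values.

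The largest change was that of Rps27rt, a retrogene copy of Rps27 on chromosome 9, with 99.0 and 27.7 FPKM in immature FL-cDC2s, against 3.89 and 1.69 FPKM in non-DCs (log2 fold change 3.83 ± 0.64 (SE), adjusted p 0.00207). Rps12, a protein of the small subunit's head, had 55.2 and 16.2 FPKM in immature FL-cDC2s, against 3.86 and 2.41 FPKM in non-DCs (2.84 ± 0.63, adjusted p 0.00748, edgeR). Rpsa, a small subunit protein known also as the laminin receptor, had 266 and 112 FPKM in immature FL-cDC2s, against 23.8 and 14.7 FPKM in non-DCs (2.65 ± 0.47, adjusted p 0.0028, edgeR). All 3 genes were higher in each immature FL-cDC2 library than in either non-DC library. Rpl32, Rpl37, Rpl36, Rpl37a, Rpl12 and Rps26 were also among the 10 largest changes, with log2 fold changes of 2.38 to 2.62. The P stalk genes also rose, Rplp0 2.46-fold, Rplp1 by 1.87 ± 0.52 on the log2 scale and Rplp2 by 1.66 ± 0.48, with edgeR adjusted p of 0.0216, 0.0202 and 0.0223.

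Among the 14 members that did not pass were 5 of the 7 paralogs and retrogenes tested. Rpl7l1, a paralog of Rpl7 known in ribosome assembly, had a log2 fold change of 0.11 ± 0.19, Rps27l 0.57 ± 0.32, Rpl36al 1.01 ± 0.38 and Rps4l -1.51 ± 0.56, the last the only member lower in both immature FL-cDC2 libraries. The values of Rps27 (0.90 ± 0.60) and Rps9 (0.60 ± 0.42) also lay below the family median. Fitted with the length trend taken out, 68 members were higher and 1 lower, with a median of 1.32, and 67 of the called members were the same. The count fell to 28 without non-DC replicate 2 and to 36 without immature FL-cDC2 replicate 1. Scaling on library size alone, which moved the median of all genes to 0.64, gave 82 higher members with a median of 2.53, and scaling on the members alone, which sets their median near 0, gave 1 higher and 1 lower.

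The 36 tested members with a tract had a median log2 fold change of 1.96 (31 past the threshold) and the 28 without one 1.72 (21 past it). The 21 members with no window in the table had a median of 1.94. These medians are a description of the same contrast and were not tested.

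Non-DCs were then set against GM-Macs, the macrophage-like cells to which they are compared by expression in the study. These subsets come from different cultures and stand in different deposited tables, so subset, culture and table cannot be told apart here. From co-culture experiments, among others, the paper concludes that the cells called non-DCs here are precursors of cDC2s. Non-DCs had the lower level of most members. Of 88 members tested in the fit of all 13 libraries (all but Rpl10l), 68 were lower in non-DCs and 0 were higher by edgeR's test, against 11.2% and 9.29% of 14936 genes (20.5% in either direction). The median log2 fold change of the members was -2.29, against -0.09 for all genes and -1.01 for 502 other short, expressed genes, of which 15.3% were lower. In FPKM, 82 of the 88 lay lower in each non-DC library than in each GM-Mac library, against 36.9% of all genes, and 2 lay higher, against 24.1%. Since both comparisons use the same non-DC libraries, they are not independent of each other.

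Rps27rt had 3.89 and 1.69 FPKM in non-DCs, against 82.4 and 110 FPKM in GM-Macs (log2 fold change -4.95 ± 0.79, adjusted p 0.00277). Rpl39, a very short protein that lines the exit tunnel of the large subunit, had 1.56 and 0.91 FPKM in non-DCs, against 21.4 and 25.9 FPKM in GM-Macs (-4.09 ± 0.72, adjusted p 0.00442). Rps29, a zinc-binding protein of the small subunit, had 8.22 and 5.12 FPKM in non-DCs, against 68.3 and 109 FPKM in GM-Macs (-3.59 ± 0.66, adjusted p 0.00542, edgeR). The groups did not overlap for any of these 3 genes. Rps28, Rps21, Rps26, Rpl37a, Rpl37, Rpl36 and Rpl32 followed, with log2 fold changes between -3.55 and -3.32. Rpsa (-2.66 ± 0.52), Rplp1 (-2.86 ± 0.64) and Rplp2 (-2.73 ± 0.61) also fell, with edgeR adjusted p of 0.00745, 0.0124 and 0.0123.

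Rplp0 had a log2 fold change of -1.32 ± 0.43 and did not pass (adjusted p 0.0552, edgeR), nor did Rpl3 (-0.997 ± 0.322), Rpl4 (-0.27 ± 0.34) or Rps9 (-0.89 ± 0.55), which are 4 of the 5 most abundant members. Rpl7l1 had 64.9 and 66.4 FPKM in non-DCs, against 54.0 and 49.8 FPKM in GM-Macs, and was one of 2 members that were higher in each non-DC library (0.49 ± 0.22, adjusted p 0.135, edgeR). The other was Rpl26. With the length trend taken out, 69 members were lower and 0 higher, with a median of -1.51 and 66 of the called members shared. The count rests on few libraries: it was 1 without non-DC replicate 2, 34 without non-DC replicate 1 and 35 without GM-Mac replicate 2, while the median stayed between -2.79 and -1.95. Scaled on the members alone, 3 were lower and 6 higher.

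**Figure D3:**
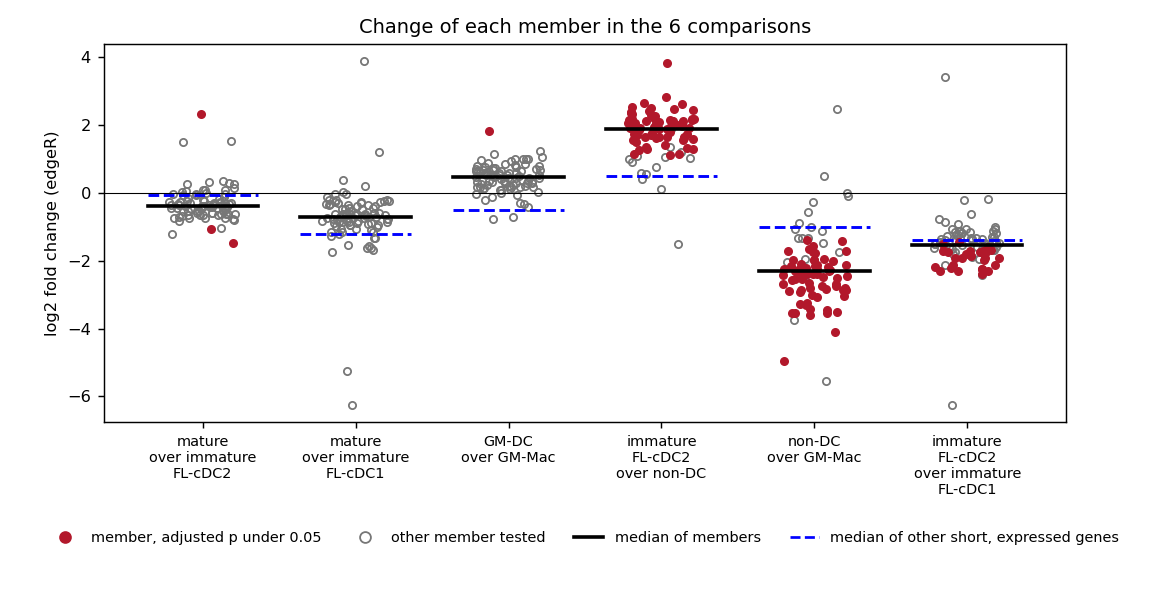
Log2 fold change of each ribosomal protein gene by edgeR (vertical axis) in the 6 comparisons, first subset over second, with filled points for members past an adjusted p of 0.05. Solid lines mark the median of the members and dashed lines that of other genes of at most 1000 bases with at least 10 FPKM. The medians of members and of other short genes are 1.87 and 0.50 where immature FL-cDC2s are set over non-DCs, -2.29 and -1.01 where non-DCs are set over GM-Macs, and -1.53 and -1.38 between the immature subsets.

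The third comparison asked what maturation did to the family within FL-cDC2s. Few members were called in this comparison, in which 46.5% of all genes were. A member that was not called may still have changed, since in simulated counts for this comparison the test found 12% of the genes altered 2-fold. Of 85 members tested, 1 was higher in mature FL-cDC2s and 2 were lower by edgeR's test, against 22.5% and 24% of all genes. The median log2 fold change was -0.37, against 0 for all genes and -0.07 for other short, expressed genes, and it was 0.25 without immature FL-cDC2 replicate 1. In FPKM, 25 members lay lower in both mature libraries than in both immature ones, against 49.4% of all genes, and 2 lay higher, against 24.2%.

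The member that rose was Rps27l, a paralog of Rps27 known as a target of p53 (chromosome 9, 66944624 to 66949522 in GRCm38.p6). It had 160 and 234 FPKM in mature FL-cDC2s, against 68.0 and 38.7 FPKM in immature FL-cDC2s and 27.2 and 18.6 FPKM in non-DCs. Both mature libraries lay above all 4 others of the cDC2 gate. The log2 fold change of mature over immature FL-cDC2s was 2.32 ± 0.33 (adjusted p 0.000838, edgeR), and it passed in all 17 alternative fits, which gave 1.89 to 2.72 and adjusted p of at most 0.0136. In the same comparison its parent gene Rps27 had 4.94 and 14.6 FPKM in mature and 10.1 and 11.6 FPKM in immature FL-cDC2s, which overlapped (0.26 ± 0.59).

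Rpl12, which sits at the foot of the P stalk, had 10.4 and 18.1 FPKM in mature FL-cDC2s, against 76.0 and 32.7 FPKM in immature FL-cDC2s (log2 fold change -1.49 ± 0.47, adjusted p 0.0334, edgeR). Rpl36al, a paralog of Rpl36a, had 15.5 and 19.2 FPKM in mature FL-cDC2s, against 65.1 and 33.9 FPKM in immature FL-cDC2s (-1.08 ± 0.38, adjusted p 0.049, edgeR). Neither overlapped between the subsets. Both calls were near the threshold: Rpl12 passed in 12 of 17 alternative fits (adjusted p 0.00548 to 0.31) and Rpl36al in 9 of 17 (0.0107 to 0.586). Without immature FL-cDC2 replicate 2, 2 members were higher and 12 lower, without mature FL-cDC2 replicate 1 only Rps27l passed, and scaling on library size alone gave 1 higher and 8 lower. With the length trend taken out, 2 members were higher (Rps27l and Rps4l) and 6 lower, with a median of -0.22.

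For FL-cDC1s the single mature library was set against 2 immature ones in the fit of all libraries, and it is assumed to vary like the others. The mature library stands in a deposited table of its own, so maturation and table cannot be told apart here. No change of any member passed: 0 of 88 were called by edgeR's test (5 at an unadjusted p under 0.05), 4 by DESeq2 and 2 by limma, against 20.9% of all genes by edgeR (12.6% higher and 8.28% lower). The median log2 fold change was -0.72 and that of other short, expressed genes was -1.21, and the members' median was 0.36 with the length trend taken out and 0.30 without immature FL-cDC1 replicate 2. The mature library lay below both immature ones for 23 members and above both for 3, against 35.9% and 37.4% of all genes. Without immature FL-cDC1 replicate 1, 6 members were lower.

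Rps27l was one of the 3 above both immature libraries, with 430 FPKM in the mature library, its highest level anywhere, against 95.0 and 249 FPKM in immature FL-cDC1s (1.19 ± 0.67, adjusted p 0.223, edgeR). With the length trend taken out, the change was 2.51 (adjusted p 1.01e-05, edgeR), and Rpl19, Rps26, Rplp2 and Rpl41 were also higher in the mature library and Rpl7l1 lower. Rpl12 had 68.8 FPKM in the mature library, between the 52.2 and 139 FPKM of the immature ones. The maturation change itself was compared between FL-cDC2s and FL-cDC1s: 0 of 88 members differed by edgeR's test, with no other tool run (1, Rpl7l1, at an unadjusted p under 0.05), against 6.03% of all genes. For Rps27l the difference was 1.09 ± 0.91 on the log2 scale. With the length trend taken out, 1 member passed, Rpl12 (-1.92, adjusted p 0.0258, edgeR).

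In GM-BM culture the GM-DCs, which carry the mature DC phenotype, were compared with GM-Macs. Most members lay higher in GM-DCs, by amounts that 2 libraries a group could seldom separate. In FPKM, 66 of 86 members lay higher in both GM-DC libraries than in both GM-Mac libraries, against 40.3% of all genes, and 0 lay lower, against 25.5%. By edgeR's test 1 member was higher and 0 lower (14 at an unadjusted p under 0.05), against 8.71% and 10.6% of 13083 genes (19.3% in either direction). The median log2 fold change was 0.47, while it was -0.05 for all genes and -0.49 for other short, expressed genes. It was 0.57 for the core of the small subunit and 0.45 for that of the large subunit. GM-DC replicate 1 and GM-Mac replicate 1 share a deposited table, and between them alone 75 of 77 core members were higher in the GM-DC library (median 0.94).

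The member that passed was Rpsa (chromosome 9, 120127766 to 120132369 in GRCm38.p6), with 677 and 461 FPKM in GM-DCs, against 157 and 114 FPKM in GM-Macs (log2 fold change 1.83 ± 0.37, adjusted p 0.0187, edgeR). These were its highest libraries of all 13, and the next was immature FL-cDC1 replicate 2 at 362 FPKM. Rps27rt had 337 and 172 FPKM in GM-DCs, against 82.4 and 110 FPKM in GM-Macs (1.14 ± 0.41, adjusted p 0.0982, edgeR), and Rpl22, an RNA-binding protein of the large subunit, 22.0 and 15.4 FPKM against 7.07 and 8.10 FPKM (1.06 ± 0.34, adjusted p 0.0717, edgeR). Other tools called more: DESeq2 10 members, limma on log2(FPKM + 1) 11 and the fit with the length trend taken out 14, all of them higher in GM-DCs and with a median of 0.81 in the last. Without GM-DC replicate 1 no member passed, and without GM-Mac replicate 1 or 2 it was 2 or 4.

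The immature cells of both cDC lineages were compared last. Their libraries stand in different deposited tables, so lineage and table cannot be told apart here. Immature FL-cDC2s had 27 of 88 members lower than immature FL-cDC1s and 0 higher by edgeR's test, against 8.9% and 11.4% of all genes (20.3% in either direction). The median log2 fold change was -1.53 (0.021 when scaled on the members alone), while that of other short, expressed genes was -1.38 and that of all genes 0.02. Of 546 such short genes 167 (30.6%) were lower, near the 30.7% of the members. Rpl39 had 14.9 and 4.54 FPKM in immature FL-cDC2s, against 17.3 and 49.4 FPKM in immature FL-cDC1s (-2.32 ± 0.64, adjusted p 0.0301, edgeR). Rps29 had 65.4 and 26.7 FPKM in immature FL-cDC2s, against 83.6 and 233 FPKM in immature FL-cDC1s (-2.32 ± 0.62, adjusted p 0.0261, edgeR). Neither gene overlapped, and Rps28, Rpl36al, Rpl38, Rps27l, Rpl27, Rpl35a and Rps26 were also among the 10 largest, at -2.31 to -1.98. In FPKM, 24 of 88 members lay lower in both immature FL-cDC2 libraries, against 14.4% of all genes, and 1, Rpl7l1, lay higher, against 44.9%.

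The count moved widely with the libraries and the scaling. With the length trend taken out the median was -0.28 and 3 members were lower and 1 higher, 2 of them shared with the 27. No member passed without immature FL-cDC2 replicate 2 or without immature FL-cDC1 replicate 2, and 77 were lower without immature FL-cDC1 replicate 1. DESeq2 called 64 members, and a fit of these 4 libraries alone called 4.

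Over all 7 subsets, 82 of 88 members differed by edgeR's test, against 68.4% of all genes. To see which members departed from the family, the libraries were also scaled on the ribosomal protein genes alone, which by construction brings the family's median change near 0. Then 7 of 88 differed among the subsets: Rps27l, Rps27rt, Rpl39, Rpl7l1, Rps4l, Rps19bp1 and Rpl26, of which 4 are paralogs or retrogenes and 1 is no ribosomal protein. The share of all genes called on this scale is not given here. In this scaling Rps27l rose in mature over immature FL-cDC2s (2.64, adjusted p 0.00607), and Rps27rt (-2.73, adjusted p 0.00653) and Rpl39 (-1.84, adjusted p 0.0196) were lower in non-DCs than in GM-Macs relative to the family, by edgeR. Rps27, with which Rps27rt can share reads, was higher there on the same scale (2.06, adjusted p 0.0461, edgeR). Relative to the family, Rpl7l1 (2.83), Rpl4 (1.99) and Rps9 (1.45) were higher in non-DCs than in GM-Macs, with edgeR adjusted p of 0.00891, 0.0188 and 0.0464.

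**Figure D4:**
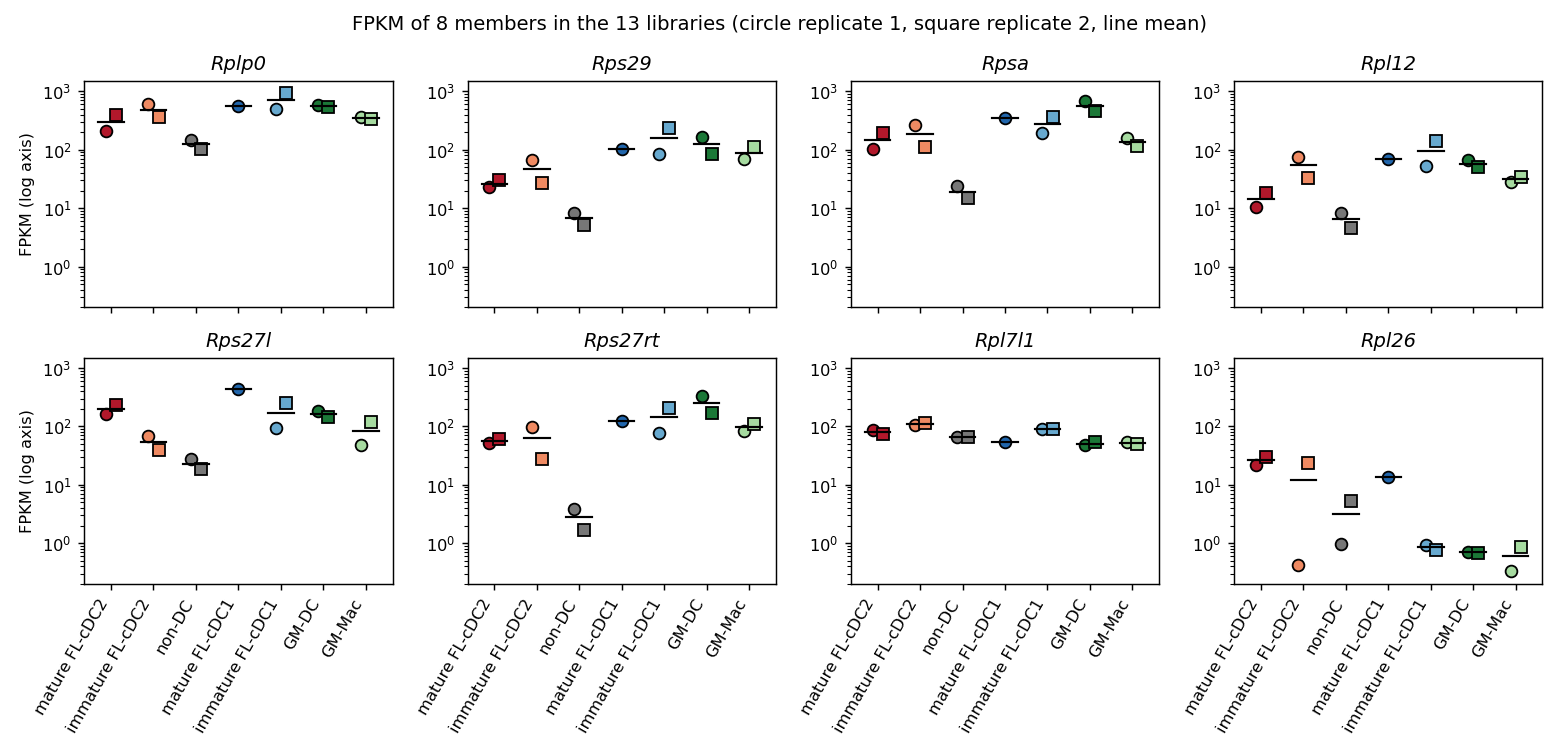
FPKM on a log axis of 8 ribosomal protein genes in the 13 libraries, with circles for replicate 1, squares for replicate 2 and a line for the mean of a subset. Rplp0, Rps29, Rpsa and Rpl12 share the low point in non-DCs, Rps27l peaks in mature FL-cDC1s at 430 FPKM, Rps27rt drops to 3.89 and 1.69 FPKM in non-DCs, Rpl7l1 stays between 47.1 and 113 FPKM, and Rpl26 varies between libraries of a subset.

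The members least like the family were Rpl26 and Rpl7l1. Rpl26, a protein near the exit tunnel, had r of -0.40 with the family median. It had 22.2 and 30.3 FPKM in mature FL-cDC2s, 0.423 and 23.8 in immature FL-cDC2s, only 0.971 and 5.35 in non-DCs, and 13.4 in the single library of mature FL-cDC1s. In immature FL-cDC1s, GM-DCs and GM-Macs it lay at 0.338 to 0.942 FPKM, on 12 to 38 reads per library. The 2 libraries of immature FL-cDC2s lay near opposite ends of its range, and reads shared with copies of this gene elsewhere in the genome could not be traced in a table of counts. Rpl7l1 had r of -0.07 and the narrowest range of the expressed members, with 87.9 and 73.8 FPKM in mature FL-cDC2s, 106 and 113 in immature FL-cDC2s and 64.9 and 66.4 in non-DCs. It had 53.7 FPKM in the mature FL-cDC1 library, 91.6 and 91.8 in immature FL-cDC1s, 47.1 and 53.6 in GM-DCs and 54.0 and 49.8 in GM-Macs. Its implied transcript, of 2645 bases, is longer than that of most members. Rps19bp1, the protein that binds Rps19, was also apart from the family (r of 0.70). It had 6.67 and 9.63 FPKM in mature FL-cDC2s, 14.6 and 11.6 in immature FL-cDC2s, against 7.46 and 5.08 in non-DCs. It had 6.48 FPKM in the mature FL-cDC1 library, 15.1 and 25.2 in immature FL-cDC1s, 10.9 and 7.498 in GM-DCs and 7.72 and 12.8 in GM-Macs. Non-DCs lay below GM-Macs without overlap, by -0.57 ± 0.44 on the log2 scale (adjusted p 0.381, edgeR).

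The ratio of a paralog to its parent gene is given as a description, with no test. On the FPKM scale Rps27l over Rps27 averaged 24.2 in mature FL-cDC2s and 5.04 in immature FL-cDC2s, without overlap, while non-DCs averaged 4.10. Over Rps27rt in place of Rps27, it averaged 3.43 in mature and 1.04 in immature FL-cDC2s, also without overlap, while non-DCs were the highest of the 7 subsets at 9.01, so the place of non-DCs depends on the copy chosen. In the mature FL-cDC1 library Rps27l over Rps27 was 81.4, against 10.4 to 33.2 in immature FL-cDC1s. Over Rps27rt it was 3.52, against 1.18 to 1.25. Rpl7l1 over Rpl7 was 1.04 to 1.82 in non-DCs, against 0.287 to 0.294 in GM-Macs. It was 0.12 to 0.155 in GM-DCs. Rpl22l1 over Rpl22, a pair in which the Rpl22 protein is known to restrain its paralog, was 0.72 to 0.756 in GM-DCs, against 1.68 to 3.33 in GM-Macs, and these did not overlap. Rpl36al over Rpl36a averaged 1.88 in mature FL-cDC2s and 3.11 in immature FL-cDC2s, without overlap, while non-DCs had the highest mean ratio of the 7 subsets, 5.17. Rps4l, an Rps4-like gene, was at most 0.0841 of its parent in any subset. Such pairs can share reads, and Rps27 with Rps27rt and Rpl37 with Rpl37rt most of all, so their split is uncertain. The levels of Rpl34 are uncertain in the same way, since the row of its pseudogene Rpl34-ps1, which the choice of genes leaves out, held 147 and 88.4 FPKM in GM-DCs, against 11.8 and 14.3 FPKM for Rpl34 itself.

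Rack1 and Fau encode constituents of the ribosome whose symbols the choice of genes misses. Fau had 17.3 and 10.04 FPKM in non-DCs, against 78.2 and 100.3 FPKM in GM-Macs, and shared the low point of the members in non-DCs (-2.67 ± 0.58, adjusted p 0.0111, edgeR). Rack1, a scaffold on the small subunit, had 248 and 133 FPKM in immature FL-cDC2s, against 38.0 and 26.3 FPKM in non-DCs. The 22 other mRNAs known to carry a TOP tract, a list that includes both, had 15 members higher in immature FL-cDC2s than in non-DCs and 0 lower (median 1.14), against 23.6% and 24% of all genes. It had 9 lower in non-DCs than in GM-Macs and 0 higher (median -1.32), against 11.2% and 9.29% of all genes. In mature over immature FL-cDC2s the 22 had a median of -0.05, with 0 called by edgeR (1, Eef1g, at an unadjusted p under 0.05, no other tool run for this list).

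Factors that build ribosomes were followed as a list of their own. In mature over immature FL-cDC2s, 37 of 53 ribosome biogenesis genes were lower and 3 higher (median -1.14), against 24% and 22.5% of all genes. Rrp12, which exports precursor subunits, averaged 0.227 FPKM in mature and 6.33 FPKM in immature FL-cDC2s (-4.38 ± 0.34), and Wdr12, of the PeBoW complex, 1.61 and 17.9 FPKM (-3.01 ± 0.27), with edgeR adjusted p of 3.6e-05 and 7.3e-05. Gtpbp4, a GTPase of large subunit assembly, and Rcl1, a factor of pre-rRNA processing, were higher, at 1.55 ± 0.20 and 1.26 ± 0.19. In mature over immature FL-cDC1s, 23 of the 53 were lower and 2 higher (median -1.06), against 8.28% and 12.6% of all genes. Between non-DCs and GM-Macs the same list had 7 genes higher (13.2%, near the 9.29% of all genes) and 0 lower, against 11.2% (median 0.24). Between immature FL-cDC2s and non-DCs it had 25 higher and 3 lower (median 0.51), against 23.6% and 24% of all genes. The proliferation markers stood at 102 to 109 FPKM in mature FL-cDC2s, against 1415 to 1525 FPKM in immature FL-cDC2s, and at 80.8 to 92.7 FPKM in non-DCs, and their part in these changes was not tested.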

How the data were processed

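For 13 libraries the authors deposited, in 6 tables, the raw read count of each gene and its FPKM, scaled to transcript length and library total. All 26 value columns were used. Libraries were made with a SMARTer kit, whose PCR step carries no molecular identifiers. Detection floors (3 reads, 0.0421 to 0.0652 CPM) cover counting error only. The methods name HISAT and StringTie with mm10. In the submitters' processing notes stand STAR 2.6.0c and HTSeq, beside StringTie 1.3.4d, Trimmomatic and bcl2fastq 2.20.0. Whether counting used strand is not given in the sources used here.

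All genes entered edgeR 4.0.16 under R 4.3.3 as counts (filterByExpr, TMM factors, quasi-likelihood test, Benjamini-Hochberg adjustment over all genes tested, threshold 0.05). The fits held the 6 cDC2-gated libraries, the 4 GM-BM libraries or all 13, with a biological coefficient of variation of 25.8%, 38.3% and 35.9%. Standard errors were derived from the absolute log2 fold change and the F statistic, as their quotient after taking the root of F. Alternatives were DESeq2 1.42.0, limma 3.58.1 on log2(FPKM + 1) or log2(FPKM + 0.1), other scalings, filters and fits, a replicate block, each library left out, and an offset by transcript length, the last chosen after seeing the data. Length was implied from the ratio of count to FPKM. The members and lists were chosen with earlier results of these data known. Genes named are, per comparison, up to 10 members with the largest changes past the threshold, no overlap between libraries and 10 FPKM in the higher subset, the paralogs with their parents, the P stalk, Rpsa, Rps19bp1, and the 5 highest and 5 lowest members. Other members were named after their values were seen, and a few that the rule names are not reported here. In simulated counts for immature FL-cDC2s over non-DCs, run on 12935 genes, the test found 12% of the genes altered 2-fold and 72% of those altered 4-fold. Coordinates and sequences are RefSeq GRCm38.p6, with 68 of 89 members matched to a start, and Python 3.11.15 was used for summaries.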

Additional observations from a re-analysis of the deposited data

How the results depend on the processing

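Counts are members past the threshold, as computed above 3 for mature over immature FL-cDC2s, 0 for mature over immature FL-cDC1s, 1 for GM-DCs over GM-Macs, 71 for immature FL-cDC2s over non-DCs, 68 for non-DCs over GM-Macs, 27 for immature FL-cDC2s over immature FL-cDC1s, 82 for any difference and 0 for the difference in maturation. Scaling on library size alone, which moved the median of all genes by more than 0.1 (-0.40, 0.19, 0.64, -0.25 and 0.46 in the comparisons of the cDC2s, the GM-BM subsets, non-DCs with each of their partners and the immature subsets), gave 9 for mature over immature FL-cDC2s, 5 for GM-DCs over GM-Macs and 4 for immature FL-cDC2s over immature FL-cDC1s. Scaling on the members alone gave 1, 0, 2, 9, 1 and 7 for mature over immature FL-cDC2s, GM-DCs over GM-Macs, immature FL-cDC2s over non-DCs, non-DCs over GM-Macs, immature FL-cDC2s over immature FL-cDC1s and any difference. The length offset gave 8, 6, 14, 4 and 1 for mature over immature FL-cDC2s, mature over immature FL-cDC1s, GM-DCs over GM-Macs, immature FL-cDC2s over immature FL-cDC1s and the difference in maturation. DESeq2 gave 7, 4, 10 and 64 for the first 4 of these. Limma with a pseudocount of 1 gave 10, 2, 11 and 9, with 0.1 it gave 10, 2, 9 and 9, and with no filter it gave 6, 2 and 3 for mature over immature FL-cDC2s, mature over immature FL-cDC1s and immature FL-cDC2s over immature FL-cDC1s. A fit of only the 2 subsets gave 4 for the last. The cause of these differences was not tested.

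Leaving out 1 library in turn gave 1 to 14, 0 to 6, 0 to 4, 28 to 77, 1 to 66 and 0 to 77 in the 6 comparisons in the order above, 66 to 86 for any difference and 0 for the difference in maturation. The replicate numbers were not treated as pairs: same-numbered libraries of 3 of 15 pairs of subsets had deviations that correlated over 0.1 (range -0.158 to 0.309). With the replicate block the counts were 1, 0, 1, 70, 61, 11, 78 and 0.

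Directions that turned included the following. The median of mature over immature FL-cDC2s was 0.25 without immature FL-cDC2 replicate 1, and that of mature over immature FL-cDC1s was 0.36 with the length offset and 0.30 without immature FL-cDC1 replicate 2. The median of the difference in maturation was -0.23 on library size alone, -0.57 with the length offset and below 0 in 3 of the fits that left out 1 library (lowest -0.73). With the members alone as the scale, the median of immature FL-cDC2s over immature FL-cDC1s was 0.021. Under it, immature FL-cDC2s over non-DCs had Rpl22 -0.16, Rpl22l1 -0.54, Rpl36a -0.031, Rpl3 -0.66, Rps4x -0.37, Rplp0 -0.49, Rplp2 -0.20 and Rpl4 -0.62. Under it, non-DCs over GM-Macs had Rpl22l1 0.39, Rps27 2.06, Rpl36al 0.57, Rpl7 0.53, Rpl10 0.30, Rps4x 0.52, Rps19bp1 1.75, Rps9 1.45 and Rpl4 1.99. This scale sets the family's median change near 0 by construction. With the length offset, members that turned and passed were Rplp2 (1.15), Rpl19 (0.86), Rpl41 (1.18) and Rps26 (1.2995) in mature over immature FL-cDC1s, and Rpl35 (0.66) in immature FL-cDC2s over immature FL-cDC1s.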

Other observations

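The lists of controllers of ribosomal protein expression were also followed in mature over immature FL-cDC2s, where 22.5% of all genes were higher and 24% lower. Of 20 genes of mTORC1 and TOP control 3 were higher (15%) and 3 lower (15%). Of 11 genes of the MYC network 2 were higher (18.2%) and 3 lower (27.3%), near the shares of all genes. Myc, Mxd1 and Rptor are named from these lists after their values were seen. Myc averaged 2.097 FPKM in mature and 91.0 FPKM in immature FL-cDC2s (log2 fold change -5.01 ± 0.23), 24.2 FPKM in mature and 82.6 FPKM in immature FL-cDC1s (-1.82 ± 0.31), and 4.58 FPKM in GM-DCs and 27.1 FPKM in GM-Macs (-2.80 ± 0.32). Mxd1, which competes with MYC for its partner MAX, averaged 116 FPKM in mature and 10.8 FPKM in immature FL-cDC2s, 143 FPKM in mature and 2.21 FPKM in immature FL-cDC1s, and 66.6 FPKM in GM-DCs and 9.49 FPKM in GM-Macs. All 6 changes passed edgeR's test (adjusted p of at most 0.00721). Rptor, the scaffold of mTORC1, averaged 21.0 FPKM in mature and 3.88 FPKM in immature FL-cDC2s (2.86 ± 0.20), and 18.7 FPKM in mature and 1.90 FPKM in immature FL-cDC1s (3.25 ± 0.38). Myc was also lower in non-DCs than in GM-Macs, at 4.35 and 27.1 FPKM (-2.48 ± 0.25).

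The proteins of the mitochondrial ribosome, which are made in the cytosol from another set of genes, were followed as a list of their own. Of 78 such genes, 3 were higher and 3 lower in immature FL-cDC2s over non-DCs (median 0.29), below the 23.6% and 24% of all genes, and 2 were higher and 1 lower in non-DCs over GM-Macs (median -0.45), below the 9.29% and 11.2% of all genes. They had 15 lower and 0 higher in mature over immature FL-cDC1s (median -1.20, against -1.21 for other short, expressed genes, of which 9.82% were lower). They had 19 lower (24.4%) and 0 higher in immature FL-cDC2s over immature FL-cDC1s (median -1.07), where 30.6% of other short, expressed genes were lower. Of 37 translation factors, some of which are also on the list of other TOP mRNAs, 11 were higher and 5 lower in immature FL-cDC2s over non-DCs (median 0.18), against 23.6% and 24% of all genes. Of the same 37, 7 were lower and 4 higher in non-DCs over GM-Macs (median -0.19), against 11.2% and 9.29% of all genes. Differences between these lists and the ribosomal protein genes were not tested.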
